A study of Mus musculus with 10 samples.

Results

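The transcripts described here are 10 of the 13299 rows of the deposited table. They were picked by gene symbol from the 35 rows that the mitochondrial genome encodes. They comprise 8 mRNAs and 2 ribosomal RNAs. The mRNAs are mt-Nd1, mt-Nd2, mt-Nd4 and mt-Nd5, which encode core subunits of respiratory complex I, mt-Cytb, which encodes cytochrome b of complex III, and mt-Co1, mt-Co2 and mt-Co3, which encode the catalytic core of complex IV. The rRNAs are mt-Rnr1, of the small subunit of the mitochondrial ribosome, and mt-Rnr2, of its large subunit. All 10 rows passed the filter on low values, as did the other 25 rows with an mt- symbol (5 mRNAs and 20 tRNAs).

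Whole kidneys from 5 Rragc S74N/+ mice and 5 Rragc +/+ mice were compared to ask what changes in the old kidney when RagC, a small GTPase that relays nutrient sufficiency to the kinase complex mTORC1, carries an activating substitution. The Rragc S74N/+ mice were heterozygous in every tissue for an allele made with Cas9 and a repair oligonucleotide, which added silent changes beside the S74N codon, and the Rragc +/+ mice carried no edited allele. All mice were 1.5 years old and, as far as the labels say, untreated. The labels give neither strain nor sex and tie no sample to a named animal, so p-values measure the spread between these samples. Sequencing was from the 3′ end of polyadenylated RNA, primed with oligo-dT. Replicates were numbered 1 to 5 within each genotype in the order of deposit, and the lists of values below follow that order.

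Mitochondrial DNA is a small circle that is read from both strands into long precursor RNAs. Most of its mRNAs and rRNAs lie between tRNA genes, and cutting out the tRNAs frees them. Most of the mRNAs then receive poly(A) tails, which in several cases complete the stop codon, and the rRNAs receive much shorter ones. The nucleus encodes every other subunit of the respiratory chain as well as the proteins that copy, transcribe, process and translate this genome. Tubule cells of the kidney are rich in mitochondria, and in whole tissue fewer cells of a type and less RNA per cell cannot be told apart.

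Since the libraries were primed at the 3′ end, the annotated last 30 bases of 6 of the transcripts are shown. They are the 3 whose coding sequence stops at an incomplete stop codon, the 2 mRNAs with the lowest and the highest ratio between genotypes among those with a complete one, and the more abundant rRNA. Sequences are the reference of build GRCm38 with GENCODE release 21, plus strand, 5′ to 3′, whereas the reads had been aligned by the authors to GRCm39. Capitals mark the stop codon as far as the genome encodes it.
mt-Nd4 (chrM:11515-11544): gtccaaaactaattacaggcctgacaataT
mt-Cytb (chrM:15259-15288): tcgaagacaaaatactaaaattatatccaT
mt-Co3 (chrM:9361-9390): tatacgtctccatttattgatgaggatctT
mt-Co2 (chrM:7667-7696): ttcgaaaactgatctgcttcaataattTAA
mt-Nd5 (chrM:13536-13565): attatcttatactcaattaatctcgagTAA
mt-Rnr2 (chrM:2646-2675): atacgtacaccctctaacctagagaaggtt
The coding lengths of mt-Nd4 (1378 bases), mt-Cytb (1144 bases) and mt-Co3 (784 bases) each leave 1 base after the last full codon, a T that the tail extends to a stop. These 3 did not move alike. The S74N/+ mean was 0.614 times the +/+ mean for mt-Cytb and 0.687 times for mt-Nd4, against 1.01 times for mt-Co3.

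Oligo-dT can also prime inside a transcript where the genome encodes a run of adenines. Runs of at least 6 adenines were present in 6 of the 10 transcripts, namely mt-Rnr2 (4 runs), mt-Nd2 (3), mt-Nd4 (2), mt-Nd5 (2), mt-Nd1 (1) and mt-Co1 (1). The longest run and the run closest to a 3′ end are shown with flanks of 12 bases, with the run in capitals.
mt-Nd1 (chrM:3608-3637): acatcttctatgAAAAAActttctacccct
mt-Nd2 (chrM:4040-4071): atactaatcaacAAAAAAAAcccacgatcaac
The run of mt-Nd1 ends 82 bases before the 3′ end of the gene, and the run of mt-Nd2, 8 adenines long, ends 892 bases before it. No such run was found in mt-Rnr1, mt-Co2, mt-Co3 or mt-Cytb, a set that holds the mRNAs with the lowest and the highest ratio between genotypes. From which of these places reads arose was not tested, since the table holds 1 value per gene.

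Together the 10 transcripts made up 36.6% ± 0.867 of all normalized counts in the +/+ group and 35.1% ± 1.40 in the S74N/+ group (SD, n = 5 each). In mean level, 7 of the 8 mRNAs were lower in the mutant kidneys, mt-Co3 being the exception, and the rRNA sums overlapped between the groups. The 8 mRNAs summed to 656288, 713060, 610904, 628804 and 608312 normalized counts in the +/+ kidneys and to 340802, 499368, 567255, 516234 and 513338 in the S74N/+ kidneys. Every S74N/+ kidney lay below every +/+ kidney, with means of 643474 ± 43356 and 487399 ± 85900 (SD, n = 5 each), a ratio of 0.757. The 2 rRNAs summed to 1171850 ± 112287 normalized counts in +/+ and 1158320 ± 104033 in S74N/+ kidneys (SD, n = 5 each), a ratio of 0.988, and the groups overlapped.

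As a share of all normalized counts, the mRNAs took 13.1%, 14.3%, 13.3%, 12.4% and 11.96% in +/+ kidneys. In S74N/+ kidneys they took 7.41%, 11.2%, 12.02%, 10.6% and 10.7%. On this scale the highest S74N/+ kidney (replicate 3) just passed the lowest +/+ kidney (replicate 5), and no other pair crossed. The rRNAs took 23.6% ± 1.40 in +/+ and 24.7% ± 1.73 in S74N/+ kidneys (SD, n = 5 each) and the groups overlapped.

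The ratio of summed mRNAs to summed rRNAs is free of the scaling of a library. It was 0.552, 0.625, 0.613, 0.506 and 0.472 in +/+ kidneys and 0.279, 0.506, 0.501, 0.415 and 0.425 in S74N/+ kidneys. The means were 0.553 ± 0.0661 and 0.425 ± 0.0917 (SD, n = 5 each). The lowest ratios belonged to S74N/+ kidneys, but S74N/+ replicates 2 and 3 lay within the range of the +/+ group. Without S74N/+ replicate 1, the lowest of all, the S74N/+ mean was 0.462 ± 0.0483 (SD, n = 4), a change of -16.6% from the +/+ mean. These sums and ratios combine a chosen part of the genes of the mitochondrial genome and carry no test.

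**Figure D1:**
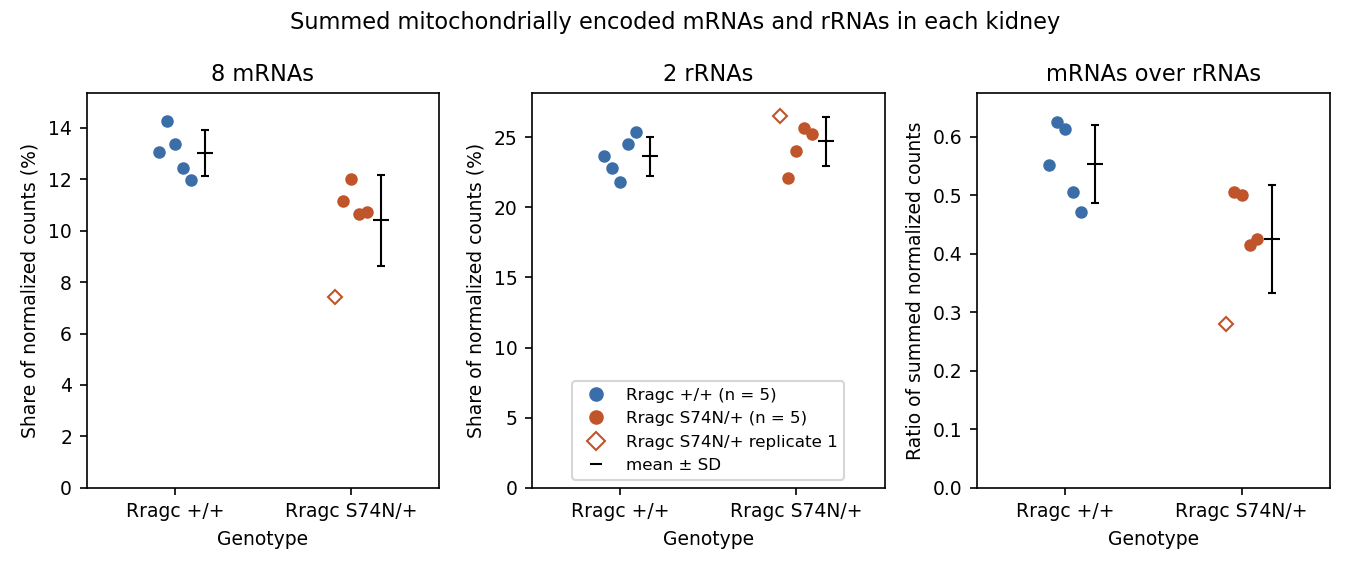
Share of normalized counts (percent) taken by the 8 mRNAs and by the 2 rRNAs, and the ratio of their sums, with 1 point per kidney, bars for mean ± SD (n = 5 per genotype) and an open diamond for S74N/+ replicate 1. The mRNA share averaged 13.0% in +/+ and 10.4% in S74N/+ kidneys while the rRNA shares overlapped, and S74N/+ replicate 1 had the lowest ratio at 0.279.

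In the fit over all 13236 genes tested (limma, Benjamini-Hochberg adjusted p under 0.05), none of the 10 transcripts passed the threshold, 5 had an unadjusted p under 0.05, and all 5 were lower mRNAs. An unadjusted p under 0.05 was found for 25.4% of all genes in either direction and for 12.8% as lower. Of all genes tested, 2.58% passed as lower and 3.45% as higher in S74N/+ kidneys. For 6 of the 8 mRNAs the groups were fully separated, each of them lower in all 5 S74N/+ kidneys, and for 0 of the 2 rRNAs, while 4.01% of all genes had non-overlapping groups in that direction. Of the 5 mRNA rows outside the 10 transcripts, 1 was fully separated, also as lower. The median log2 fold change was -0.48 over the 8 mRNAs and -0.03 over the 2 rRNAs, against -0.01 over all genes tested. The count of transcripts past the threshold depended on the test and on S74N/+ replicate 1. DESeq2 on recovered reads of 8 kidneys called 5 (mt-Nd1, mt-Nd2, mt-Nd4, mt-Cytb and mt-Co1), edgeR on the same reads called mt-Co1 alone, and limma without S74N/+ replicate 1 called 3 (mt-Cytb, mt-Co1 and mt-Co2), all lower. The 8 kidneys leave out +/+ replicate 5 and S74N/+ replicate 3, the lowest +/+ and the highest S74N/+ kidney in summed mRNAs. With limma these 8 kidneys gave a larger fall than all 10 for each mRNA but mt-Co3, and 0 of the 10 transcripts passed.

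**Figure D2:**
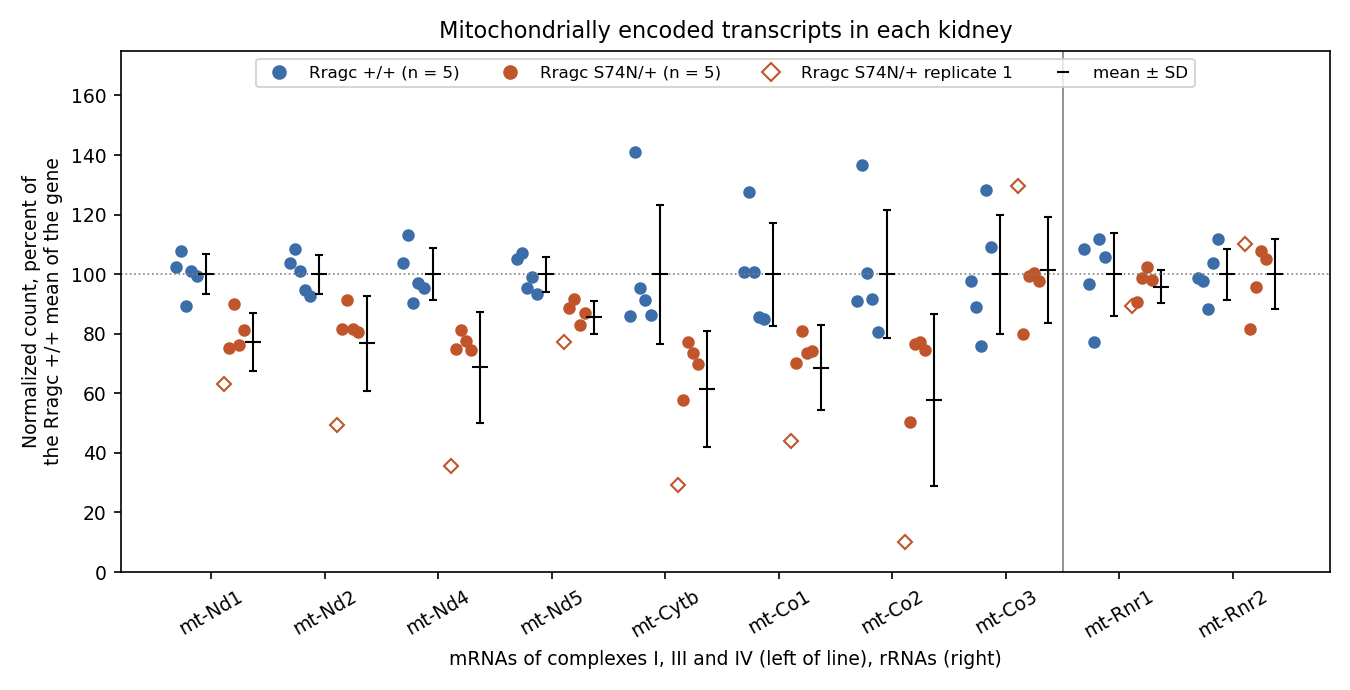
Normalized count of each transcript in each kidney as a percent of the +/+ mean of that gene, with bars for mean ± SD (n = 5 per genotype) and an open diamond for S74N/+ replicate 1. The groups stand apart for mt-Nd2, mt-Nd4, mt-Nd5, mt-Cytb, mt-Co1 and mt-Co2 and overlap for mt-Nd1, mt-Co3 and both rRNAs.

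Complex I takes electrons from NADH, and its 4 mRNAs described here form the bulk of the mRNA counts. mt-Nd2, the most abundant mRNA, had 293690, 307230, 286260, 268000 and 262324 normalized counts in +/+ kidneys. In S74N/+ kidneys it had 140156, 231669, 258419, 231025 and 228046. All 5 S74N/+ values were lower than any +/+ value, although S74N/+ replicate 3 lay close to +/+ replicate 5, and S74N/+ replicate 1 lay far below the rest of its group. The log2 fold change was -0.41 ± 0.23 (SE, adjusted p = 0.28 by limma), and an exact two-sided permutation test gave p = 0.00794, the smallest that the allocations of 10 kidneys to 2 groups of 5 allow and not adjusted for the number of genes.

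mt-Nd4, which encodes a proton-pumping subunit of the membrane arm, had 138380, 150906, 120431, 129411 and 127110 normalized counts in +/+ kidneys. The S74N/+ kidneys had 47376, 99593, 108095, 103283 and 99419. Again the groups did not overlap, and S74N/+ replicate 1 held less than any other kidney while S74N/+ replicates 2 to 5 lay close together. Its log2 fold change was -0.60 ± 0.23 (SE, adjusted p = 0.12 by limma; exact permutation p = 0.00794).

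mt-Nd1, whose protein sits at the joint of the membrane and matrix arms, had 102439, 107615, 89070, 101020 and 99431 normalized counts in +/+ kidneys. In S74N/+ kidneys it had 63230, 75208, 89819, 76214 and 81167. S74N/+ replicate 3 overlapped the lowest +/+ kidney (replicate 3), and the other 4 S74N/+ kidneys were lower than all +/+ kidneys. For mt-Nd1 the log2 fold change was -0.38 ± 0.17 (SE, adjusted p = 0.17 by limma; exact permutation p = 0.0159).

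mt-Nd5, which encodes another pumping subunit, had the smallest difference among the complex I mRNAs. The +/+ kidneys had 34588, 35186, 31375, 32591 and 30763 normalized counts. The S74N/+ kidneys had 25461, 29140, 30184, 27332 and 28564, all below the lowest +/+ value. The log2 fold change was -0.23 ± 0.13 (SE, adjusted p = 0.28 by limma; exact permutation p = 0.00794). mt-Nd5 took 5.12% ± 0.128 of the summed mRNAs in +/+ and 5.90% ± 0.906 in S74N/+ kidneys (SD, n = 5 each), and this share was higher in each S74N/+ kidney than in any +/+ kidney.

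Cytochrome b, the product of mt-Cytb, is the one subunit of complex III that mitochondria encode. mt-Cytb had 35570, 58468, 39515, 37854 and 35753 normalized counts in +/+ kidneys and 12132, 23876, 31941, 30408 and 28935 in S74N/+ kidneys. All S74N/+ values were lower, with +/+ replicate 2 standing high and S74N/+ replicate 1 standing low. Its log2 fold change was -0.75 ± 0.24 (SE, adjusted p = 0.070 by limma; exact permutation p = 0.00794). Without S74N/+ replicate 1 it was -0.51 ± 0.15 and passed the threshold (SE, adjusted p = 0.043 by limma).

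The 3 complex IV mRNAs differed from each other. mt-Co1, which encodes the subunit that holds the heme and copper site where oxygen is reduced, had 16255, 20591, 16270, 13836 and 13701 normalized counts in +/+ kidneys and 7119, 11302, 13056, 11853 and 11991 in S74N/+ kidneys. The groups did not overlap, and the +/+ kidneys with the lowest values, replicates 4 and 5, lay just above the highest S74N/+ kidney. The log2 fold change of -0.56 ± 0.17 lay nearest to the threshold of the 10 transcripts (SE, adjusted p = 0.061 by limma; exact permutation p = 0.00794). With edgeR on the reads of 8 kidneys it was -0.66 and passed (adjusted p = 0.047). On the same 8 kidneys limma gave -0.68 and it did not pass (adjusted p = 0.052).

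mt-Co2, which encodes the subunit that accepts electrons from cytochrome c, was the least abundant of the 10 and had the lowest ratio. It had 1385, 2081, 1527, 1398 and 1227 normalized counts in +/+ kidneys and 151, 767, 1166, 1174 and 1138 in S74N/+ kidneys. S74N/+ replicates 3, 4 and 5 lay just below +/+ replicate 5, and S74N/+ replicate 1 was far below all others. The log2 fold change was -1.08 ± 0.42 (SE, adjusted p = 0.13 by limma; exact permutation p = 0.00794), and without S74N/+ replicate 1 it was -0.52 ± 0.14 and passed (SE, adjusted p = 0.034 by limma). Its 162 reads in S74N/+ replicate 1 carry a counting error of 7.86%, the largest for any of the 10 transcripts.

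mt-Co3, the remaining core subunit, was not lower. It had 33981, 30983, 26457, 44694 and 38005 normalized counts in +/+ kidneys and 45176, 27814, 34575, 34945 and 34079 in S74N/+ kidneys. The groups overlapped fully, and the highest value of all belonged to S74N/+ replicate 1, the kidney that was lowest for the 7 other mRNAs. Its log2 fold change was 0.03 ± 0.17 (SE, 95% interval -0.34 to 0.39, adjusted p = 0.95 by limma; exact permutation p = 0.88). That interval holds the estimate of mt-Nd5. Its sign was negative in 5 of 26 alternative fits, among them the fit without S74N/+ replicate 1 (-0.07).

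The levels of both rRNAs overlapped between the genotypes. mt-Rnr2 had 821774, 814797, 736401, 864322 and 931331 normalized counts in +/+ kidneys and 917949, 681267, 798006, 897243 and 877090 in S74N/+ kidneys. mt-Rnr1 had 367018, 326928, 260823, 377908 and 357956 in +/+ kidneys and 302439, 306594, 333964, 345929 and 331120 in S74N/+ kidneys. The lowest mt-Rnr1 value was in +/+ replicate 3 and the lowest mt-Rnr2 value in S74N/+ replicate 2, and for both genes the groups overlapped. For mt-Rnr1 the log2 fold change was -0.05 ± 0.23 (SE, 95% interval -0.53 to 0.43, adjusted p = 0.91 by limma; exact permutation p = 0.57). For mt-Rnr2 it was -0.003 ± 0.28 (SE, 95% interval -0.60 to 0.60, adjusted p = 0.996 by limma; exact permutation p = 0.99), and its sign turned in 12 of 26 alternative fits. These intervals hold differences as large as that of mt-Nd1 or mt-Nd2, and the difference between an mRNA and an rRNA was not tested. However, limma sets the SE of every transcript partly from other genes, so the intervals do not rest on the spread of the rRNA values alone. Coefficients of variation in +/+ and S74N/+ kidneys were 14.0% and 5.77% for mt-Rnr1 and 8.57% and 11.6% for mt-Rnr2. The ratio of mt-Rnr2 to mt-Rnr1 was 2.49 ± 0.239 in +/+ and 2.58 ± 0.307 in S74N/+ kidneys (SD, n = 5 each).

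**Figure D3:**
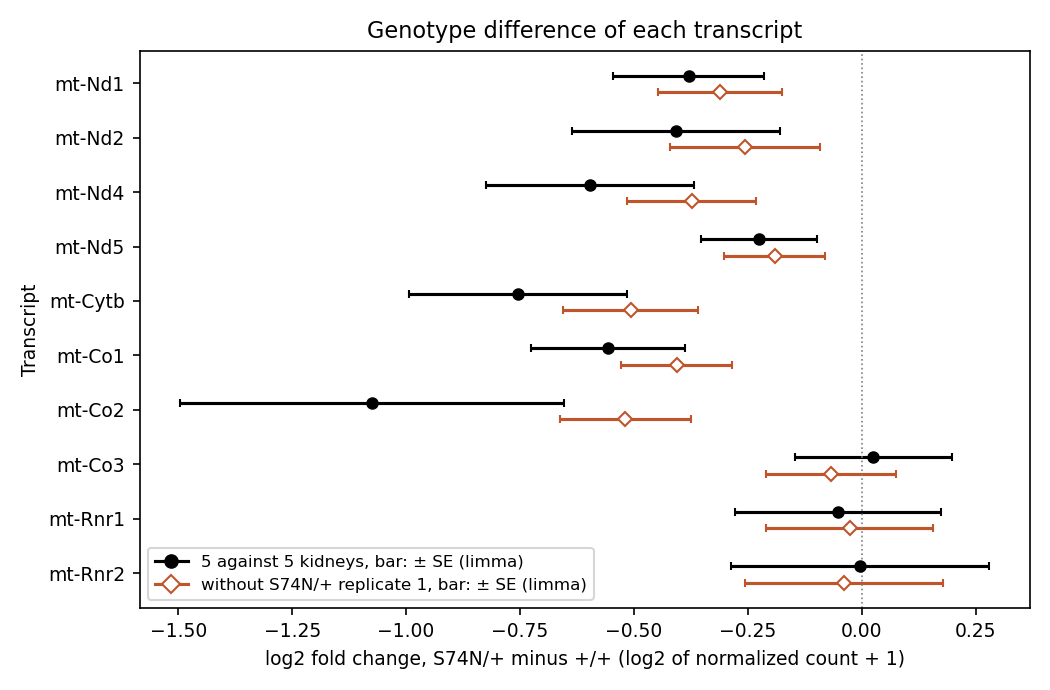
Log2 fold change (S74N/+ minus +/+, log2 of normalized count + 1) of each transcript with its SE from limma, for 5 against 5 kidneys (filled) and without S74N/+ replicate 1 (open). The estimate moved from -1.08 to -0.52 for mt-Co2 when that kidney was left out and stayed below 0 for all mRNAs but mt-Co3, which went from 0.03 to -0.07.

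S74N/+ replicate 1 stood apart in a way that differed from gene to gene. Relative to the mean of S74N/+ replicates 2 to 5, it held 0.142 times the mt-Co2 counts, 0.421 times those of mt-Cytb and 0.462 times those of mt-Nd4. For mt-Nd2 and mt-Co1 the ratio was 0.591 each, for mt-Nd1 0.784 and for mt-Nd5 0.884. mt-Rnr1 at 0.918 times and mt-Rnr2 at 1.13 times were close to the other kidneys, and mt-Co3 at 1.38 times was above them. Rows outside the 10 transcripts split in the same kidney, with mt-Atp8 at 0.529 times and the adjoining mt-Atp6 at 1.22 times. mt-Nd3 and mt-Nd6, which do not adjoin mt-Atp8, were at 1.66 and 1.30 times. mt-Atp8 and mt-Atp6 share 43 bases on the same strand and mt-Atp6 and mt-Co3 share 1, and how reads in such stretches were divided was not tested.

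**Figure D4:**
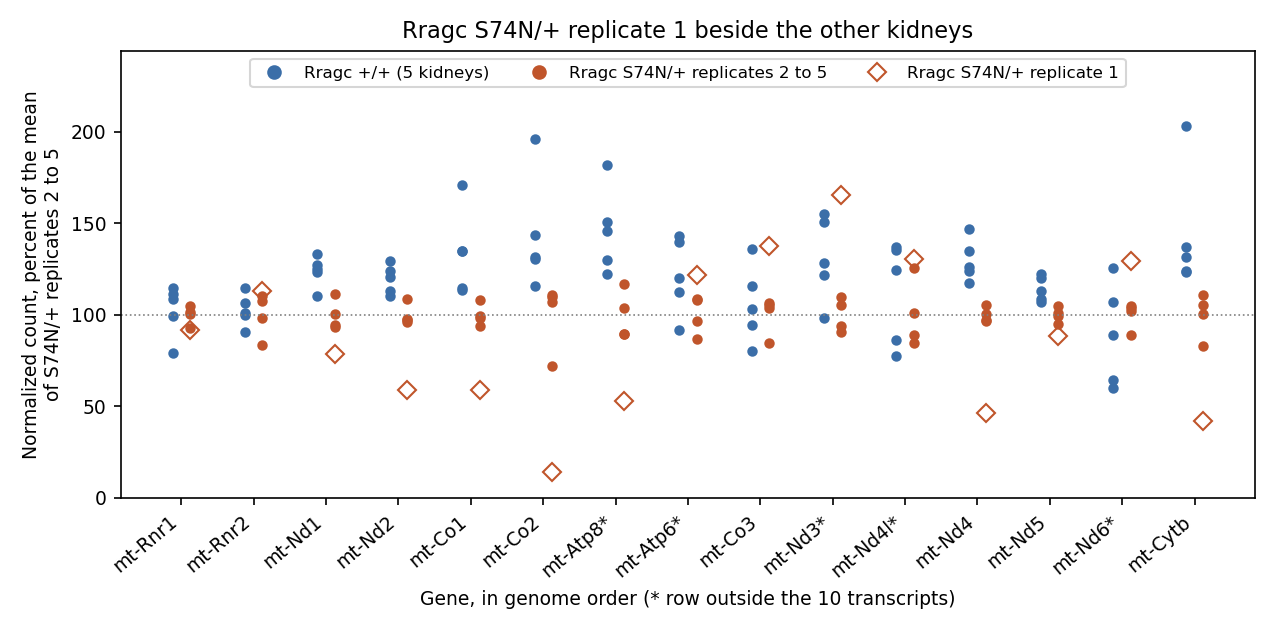
Normalized count of the 13 mRNAs and 2 rRNAs in each kidney as a percent of the mean of S74N/+ replicates 2 to 5, in genome order, with asterisks for rows outside the 10 transcripts. S74N/+ replicate 1 (open diamond) ranges from 0.142 times that mean for mt-Co2 to 1.66 times for mt-Nd3.

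Without S74N/+ replicate 1 the differences were smaller and kept their direction in the sums. The S74N/+ mean of the summed mRNAs became 524049 ± 29731 normalized counts (SD, n = 4), a change of -18.6% from the +/+ mean instead of a ratio of 0.757 with all 5. The log2 fold changes became -0.31 for mt-Nd1, -0.26 for mt-Nd2, -0.37 for mt-Nd4, -0.19 for mt-Nd5 and -0.41 for mt-Co1. The coefficient of variation of mt-Nd4 among S74N/+ kidneys went from 27.2% to 3.97%, below the 8.84% of the +/+ kidneys.

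The sample titles carry numbers in 2 ranges, under and over 200, whose meaning the labels do not give. Among the 3 kidneys per genotype with low numbers the mRNA share was 13.1% to 14.3% in +/+ and 7.41% to 12.02% in S74N/+. Among the 2 per genotype with high numbers it was 11.96% to 12.4% in +/+ and 10.6% to 10.7% in S74N/+. The ratio of mRNAs to rRNAs, whose pooled groups overlapped, did not overlap within either range, at 0.552 to 0.625 against 0.279 to 0.506 with low numbers and 0.472 to 0.506 against 0.415 to 0.425 with high numbers. The share of rRNAs overlapped in both ranges. Yet mt-Rnr1 itself was lower in both S74N/+ kidneys with high numbers (331120 to 345929 against 357956 to 377908 normalized counts). With so few kidneys per range, full separation arises easily by chance, so nothing is concluded from it. For mt-Co3 the S74N/+ kidneys were above or among the +/+ kidneys with low numbers (27814 to 45176 against 26457 to 33981 normalized counts) and below them with high numbers (34079 to 34945 against 38005 to 44694).

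Scaled to the length of each gene, the order of levels was nearly the same in all kidneys. mt-Rnr2 came first in every kidney, at 527007 ± 45182 normalized counts per kilobase in +/+ (SD, n = 5). mt-Rnr1 (354059 ± 49425) and mt-Nd2 (273122 ± 17785) followed and exchanged places in some kidneys. mt-Nd1 (104404 ± 7101) came next in every kidney, ahead of mt-Nd4 at 96696 ± 8547. Their spreads between kidneys overlap, but both are measured in the same kidneys, and the difference within kidneys was not tested. The spreads of mt-Co3 (44418 ± 8860) and mt-Cytb (36217 ± 8445) overlap too. mt-Nd4, mt-Co3, mt-Cytb and mt-Nd5 (18038 ± 1064) did not keep 1 order in all kidneys. mt-Co1 (10441 ± 1805) and then mt-Co2 (2227 ± 481) were the lowest in every kidney. These are reads near priming sites divided by gene length, and a 3′ read count does not grow with length, so the scale penalizes long genes.

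The 25 other rows of the mitochondrial genome came to 0.696% ± 0.0517 of all counts in +/+ and 0.573% ± 0.0597 in S74N/+ kidneys (SD, n = 5 each). Of them, 2 passed the threshold, both lower, beside 2.58% of all genes that passed in that direction. mt-Atp8, an ATP synthase subunit, had 11877, 14365, 11497, 10232 and 9666 normalized counts in +/+ and 4173, 8175, 9232, 7060 and 7069 in S74N/+ kidneys. Its groups did not overlap, and in log2 terms it fell by 0.73 ± 0.18 (SE, adjusted p = 0.031 by limma). mt-Th, the histidine tRNA that directly follows mt-Nd4, fell by 0.89 ± 0.22 (SE, adjusted p = 0.028 by limma), from 83.5 to 131 normalized counts in +/+ to 33.0 to 80.0 in S74N/+ kidneys, on as few as 34 reads. mt-Atp6, mt-Nd3 and mt-Nd4l had log2 fold changes of -0.21, -0.23 and -0.06, and none passed (limma adjusted p of 0.38, 0.41 and 0.89). mt-Nd6, the one mRNA read from the other strand, had 107 ± 33.2 normalized counts in +/+ and 127 ± 17.5 in S74N/+ kidneys (SD, n = 5 each), a log2 fold change of 0.29 ± 0.20 (SE, adjusted p = 0.37 by limma). Of the 20 tRNA rows, 18 had a negative log2 fold change and the median was -0.31, at levels down to 6.89 normalized counts for mt-Ty. Which molecules gave reads in tRNA rows was not tested.

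Nuclear copies of mitochondrial genes can take or give reads. In the GRCm38 annotation, the table's rows Gm13340 (97.6% identical over 1545 bases to mt-Co1), Gm13341 (95.9% over 684 bases to mt-Co2), Gm13339 (96.7% over 510 bases to mt-Nd2) and Gm4076 (95.2% over 954 bases to mt-Nd5) were such copies. Gm13341 had 160 to 248 normalized counts in +/+ and 60.6 to 148 in S74N/+ kidneys, so it was lower in the same kidneys as mt-Co2, at a level that is not negligible beside the 151 normalized counts of mt-Co2 in S74N/+ replicate 1. The 3 others reached no more than 215.4 normalized counts in any kidney, far below mt-Co1, mt-Nd2 and mt-Nd5. Gm43743 matches mt-Atp6 over 116 bases (94.8%) and had 2588 to 5160 normalized counts in +/+ and 222 to 2713 in S74N/+ kidneys. How reads were divided between a gene and its copy was not tested.

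Part of the subunits that the nucleus encodes for the same complexes passed as lower. Of 37 nuclear complex I subunits tested, 7 passed as lower and 0 as higher, with a median log2 fold change of -0.37. Among them were Ndufa8, Ndufb2, Ndufb5, Ndufb9, Ndufb10 and Ndufc2, and the largest fall was that of Ndufa8 (-1.17 ± 0.30, SE, adjusted p = 0.031 by limma). Ndufb9 had 1848 to 2406 normalized counts in +/+ and 1509 to 1712 in S74N/+ kidneys, and Ndufv1, the NADH-binding subunit, had 1864 to 2902 and 1799 to 2592.

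Of 9 nuclear complex III subunits, 3 passed as lower, namely Cyc1 (cytochrome c1), Uqcrfs1 (the Rieske iron-sulfur protein) and Uqcrb, at -0.47, -0.50 and -0.44. The median was -0.30. Cyc1 had 855 to 1103 normalized counts in +/+ and 646 to 799 in S74N/+ kidneys, without overlap (adjusted p = 0.020 by limma). Uqcrh and Uqcrq, the most abundant of the list, had log2 fold changes of -0.21 and -0.37 and did not pass (limma adjusted p of 0.22 and 0.091).

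Of 12 nuclear complex IV subunits tested, 6 passed as lower and 0 as higher, with a median of -0.64. In log2 terms Cox6c fell by 0.49 ± 0.12 (SE, adjusted p = 0.022 by limma), from 5368 to 6881 normalized counts in +/+ to 3749 to 4822 in S74N/+ kidneys. Cox6b1 (-0.65), Cox6a1 (-0.55), Cox7b (-0.62), Cox7c (-1.08) and Ndufa4 (-0.997) passed too, each with groups that did not overlap. Cox4i1 and Cox8a had log2 fold changes of -0.33 and -0.48 and did not pass (limma adjusted p of 0.13 and 0.080). The summed levels of each of these 3 lists were lower in every S74N/+ kidney than in any +/+ kidney. The counts of calls stand beside the 2.58% of all genes that passed as lower. When all kidneys were scaled to equal sums outside the mitochondrial genome, the counts lower became 5, 3 and 5 for complexes I, III and IV, and among the genes named here Ndufb9 and Cox7b no longer passed (limma adjusted p of 0.057 and 0.055).

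**Figure D5:**
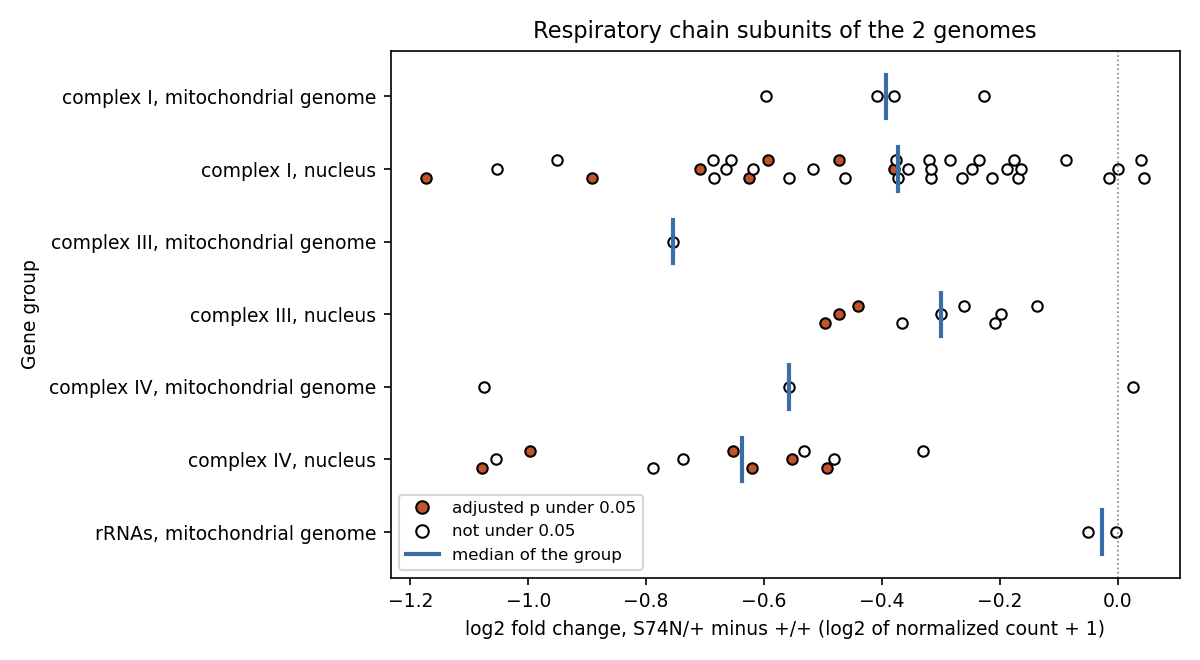
Log2 fold change (S74N/+ minus +/+, log2 of normalized count + 1) of each respiratory chain subunit, by complex and by the genome that encodes it, with filled points for an adjusted p under 0.05 (limma) and a bar at the median. Medians were -0.37, -0.30 and -0.64 for nuclear subunits of complexes I, III and IV, and the 2 rRNAs lie at -0.05 and -0.003.

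Of 85 nuclear genes tested in 6 lists that serve the mitochondrial genome, 4 passed the threshold. That is 4.71%, near the 6.03% of all genes tested that passed in either direction, and nothing is read from it. Of 7 genes of mitochondrial transcription, 0 passed, and 0 had groups that were fully separated. Polrmt, the mitochondrial RNA polymerase, had 76.8 to 96.2 normalized counts in +/+ and 51.5 to 91.7 in S74N/+ kidneys (log2 fold change -0.33 ± 0.18, SE, adjusted p = 0.26 by limma). Tfam, which packages the genome and opens its promoters, had 89.3 to 114 and 105 to 127 (0.15 ± 0.13, SE, adjusted p = 0.50 by limma), and Tfb2m 178 to 195 and 148 to 265 (0.11, adjusted p = 0.72 by limma). The median of the list was 0.18.

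Of 18 genes of mitochondrial DNA replication and maintenance, 1 passed, the adenine nucleotide carrier Slc25a4, lower at -0.57 ± 0.13 (SE, adjusted p = 0.017 by limma). It had 567 to 818 normalized counts in +/+ and 397 to 530 in S74N/+ kidneys. Of 21 genes of RNA processing and modification, 0 passed. Of 16 genes of RNA stability, tailing and decay, 1 passed, Fastk, lower at -1.08 ± 0.30 (SE, adjusted p = 0.045 by limma), with groups that overlapped at 145 to 318 and 41.0 to 164 normalized counts, a call that was lost when kidneys were scaled to equal sums outside the mitochondrial genome (adjusted p = 0.052 by limma). Lrpprc, which binds and stabilizes mitochondrial mRNAs, had a log2 fold change of 0.13 ± 0.13 (SE, adjusted p = 0.56 by limma).

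Of 13 genes of mitochondrial translation, 1 passed, Taco1, which promotes translation of mt-Co1. In log2 terms it rose by 0.92 ± 0.20 (SE, adjusted p = 0.014 by limma), from 23.5 to 28.1 normalized counts in +/+ to 39.0 to 63.4 in S74N/+ kidneys. Of 10 nuclear regulators of mitochondrial biogenesis, 1 passed, the coactivator Ppargc1a, lower at -0.52 ± 0.15 (SE, adjusted p = 0.047 by limma), with 264 to 336 normalized counts in +/+ and 151 to 255 in S74N/+ kidneys, a call that was lost under the same scaling (adjusted p = 0.064 by limma). Slc25a4 and Taco1 passed under it too. Ppara and Yy1 did not pass (-0.19 and -0.02, limma adjusted p of 0.39 and 0.92).

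Marker genes of kidney cell types moved with genotype too, and their part in the mRNA values was not tested. Their counts stand beside 2.58% of all genes that passed as lower and 3.45% as higher. Markers of the proximal tubule, the largest mitochondria-rich segment, were high in every kidney, with summed levels of 138842 to 187422 normalized counts in +/+ and 144187 to 187713 in S74N/+, and of 12 markers 1 passed as higher (Pck1) and 1 as lower (Slc5a2), with a median log2 fold change of -0.09. Kap alone made up more of that sum than all the others, at 78675 to 115404 normalized counts in +/+ and 87248 to 117408 in S74N/+ (log2 fold change 0.14, adjusted p = 0.68 by limma). All 4 markers of the distal convoluted tubule were lower, with sums of 4477 to 5597 against 1365 to 2130, and 2 of 5 of the thick ascending limb (Umod and Egf), with sums of 10639 to 14699 against 4987 to 10738. Of 7 collecting duct markers, 1 was higher and 1 lower. Of 8 macrophage markers 3 were higher (sums of 1306 to 1809 against 2431 to 3177), of 6 fibroblast markers 3, of 5 podocyte markers 1, and of 6 endothelial markers 1 was lower. Podocyte sums were higher in every S74N/+ kidney (697 to 816 in +/+ against 831 to 1048). No T cell, B and plasma cell or sex-linked gene tested passed, of 3, 4 and 4. Even so, T cell sums were higher in every S74N/+ kidney (8.95 to 30.2 in +/+ against 30.6 to 65.3), at low counts, with a median log2 fold change of 1.20. The B and plasma cell median was 0.85, with sums that overlapped. The Y-linked genes Ddx3y, Uty and Kdm5d had counts in every kidney, and Xist had no row. Ddx3y had 170 to 251 normalized counts in +/+ and 214 to 256 in S74N/+ kidneys. Scaled to equal sums outside the mitochondrial genome, 4 macrophage, 4 fibroblast, 2 collecting duct and 1 T cell genes passed as higher. No marker tested was at 0 in all kidneys.

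S74N/+ replicate 1 was extreme in other lists as well. It had the lowest sum of red blood cell genes, 2739 normalized counts against 11780.3 to 28434 in +/+ kidneys, a list in which 0 of 5 genes passed and the median was -0.88. It also had the lowest sums of the nuclear subunits of complexes I, III and IV and of the distal convoluted tubule and thick ascending limb markers, and the highest sums of macrophage and fibroblast markers. Malat1, a long RNA kept in the nucleus, was higher in all S74N/+ kidneys at 15951 to 23294 normalized counts against 10333 to 13128 (log2 fold change 0.69 ± 0.13, SE, adjusted p = 0.0086 by limma), and Kcnq1ot1, another nuclear RNA, passed as higher too (0.50, adjusted p = 0.032 by limma). Of this list 2 of 4 genes tested passed. Per the labels, RNA quality scores lay between 6.2 and 7, and no score is tied to a sample. The part of cell makeup in the mitochondrial values of this kidney was not tested.

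The genes outside the mitochondrial genome whose log2 level followed the summed mRNAs most closely over the 10 kidneys were Mpc2, a subunit of the mitochondrial pyruvate carrier (Pearson r = 0.994), Cldn10, a tight junction protein (0.990), and Cox6a1 (0.989). Mpc2 had 1314 to 1745 normalized counts in +/+ and 536 to 1222 in S74N/+ kidneys (log2 fold change -0.62, adjusted p = 0.054 by limma), and Cldn10 476 to 681 and 183 to 459 (-0.72, adjusted p = 0.042 by limma). For the summed rRNAs they were BC031181 (r = 0.946), Nme2 (0.903) and Rab8a (0.901), with log2 fold changes of -0.12, -0.20 and 0.03. These are descriptions picked from all genes, over points that share the genotype difference and the scaling of each library, and S74N/+ replicate 1 lies at the low end of the mRNA sums.

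Across the series, 798 of the 13236 genes tested passed the threshold, 457 higher and 341 lower. Depth in the 8 kidneys whose reads were recovered lay between 4488493 and 5797251. The summed normalized counts outside the mitochondrial genome were 3099920 ± 91041 in +/+ and 3011710 ± 38991 in S74N/+ kidneys (SD, n = 5 each), and per such count the summed mRNAs were 0.208 ± 0.0137 and 0.162 ± 0.0287, with no overlap. Rragc itself had 146 ± 42.7 and 124 ± 26.4 normalized counts (log2 fold change -0.22, adjusted p = 0.51 by limma), which does not check the genotype since the reads do not show the edited codon.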

How the data were processed

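RNA from whole kidney, 300 ng per sample, was made into directional oligo-dT primed 3′ libraries. Per the labels and the study's methods, the authors checked reads with FastQC 0.11.7, aligned them to GRCm39 with TopHat2 2.0.10 (Bowtie 1.0.0, SAMtools 0.1.19), allowing reads with several matches, and counted sense-strand reads per gene with HTSeq 0.6.1. The deposited signal is a count per gene after the authors had divided each sample by its own size factor. Since transcripts of the mitochondrial genome make up much of the counts, their level affects every share.

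Genes with at least 5 normalized counts in at least 5 samples (13236 of 13299) were fitted on log2(normalized count + 1), a pseudocount of 1 that understates changes of low genes, with limma 3.58.1 in R 4.3.3 (eBayes with trend, genotype only, two-sided, Benjamini-Hochberg threshold 0.05). The study used a count model. Whole reads were accepted as recovered in 8 samples (100% of values within 0.01 of a whole number). Rragc +/+ replicate 5 and Rragc S74N/+ replicate 3 met this criterion too, at steps between values of 0.995 and 0.9998. They were left out by choice because these steps are near 1. Hence edgeR 4.0.16 and DESeq2 1.42.0 ran as alternatives on 4 samples per genotype. These fits were tested on simulated data. Single transcripts were also compared by an exact permutation test (scipy 1.17.1). Counting errors cover sampling of reads only. Nuclear copies were found with blastn 2.17.0 (at least 90% identity over 50 bases).

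Named genes are the 10 transcripts, other mt- rows, genes of each list past the threshold or among its 3 highest, and the 3 genes most like each sum. The transcripts and lists were chosen with earlier results of these data known. Of each list, the text names those members that its sentences need. Results on some members of the lists are not reported here. Alternatives were pseudocounts, filters, 3 scalings, eBayes settings, a block for title numbers, count models and leaving out each sample.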

Additional observations from a re-analysis of the deposited data

Results flagged for a closer look

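Among the 10 transcripts and the 3 summed measures, each genotype was searched for a single kidney far from the other 4, 26 groups in all. The search found 3, where 1.3 would be found by chance at 1 in 20. The groups are not independent, since the 3 summed measures are built from the same 10 transcripts. Also, 2 of the flags fall in the same kidney, so an excess over chance cannot be read from these counts. mt-Nd2 in Rragc S74N/+ replicate 1 had 140156 normalized counts against 228046 to 258419 in the other S74N/+ kidneys. mt-Nd4 in the same kidney had 47376 normalized counts against 99419 to 108095. mt-Cytb in Rragc +/+ replicate 2 had 58468 normalized counts against 35570 to 39515 in the other +/+ kidneys, so this kidney widens the difference between genotypes.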

How the results depend on the processing

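The number of the 10 transcripts past the threshold was 0 with limma and moved with 4 of the planned settings other than leaving out a kidney, to 1 with robust eBayes, 5 with DESeq2, 1 with edgeR and 1 with edgeR on DESeq2 size factors. The count models ran on the 8 kidneys with recovered reads, on which limma called 0 (added later). Over the fits that left out 1 kidney each it ranged from 0 to 3, and it was 4 with edgeR without Rragc S74N/+ replicate 1, an alternative added after the data were seen. The count of genes was 798, and it was 391 without the variance trend, 223 without the trend and without Rragc S74N/+ replicate 1 (also added later), 1402 with DESeq2, and 311 to 902 when 1 kidney was left out. With equal sums, 718 of 943 genes were higher, with 457 of 798 in the main fit, and the median of all genes moved to 0.06.

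The log2 fold changes of mt-Nd1, mt-Nd2, mt-Nd4, mt-Nd5, mt-Cytb, mt-Co1 and mt-Co2 were negative in all 26 alternative fits. mt-Nd5 passed in none of them and mt-Co1 in 7, with adjusted p from 0.0091 to 0.16. The sign of mt-Co3 turned without Rragc +/+ replicate 2 (-0.0106), without +/+ replicate 3 (-0.0676), without S74N/+ replicate 1 with limma (-0.0674, with and without the trend) and with edgeR (-0.0730), and its values without 1 kidney ran from -0.0676 to 0.121. That of mt-Rnr1 turned with equal sums (0.0280). That of mt-Rnr2 turned with equal sums (0.0760), equal 75th percentiles (0.0147), equal sums outside the mitochondrial genome (0.0382), limma on the 8 samples (0.0519, added later), DESeq2 (0.0589), edgeR (0.0686), edgeR with DESeq2 size factors (0.0589) and edgeR without S74N/+ replicate 1 (0.0194), and its values without 1 kidney ran from -0.0468 to 0.0680. The cause of these turns was not tested. Under the alternatives the ratio of genotype means ran from 0.752 to 0.877 for the mRNA share and from 0.719 to 0.859 for the mRNA to rRNA ratio. For the rRNA share it ran from 1.02 to 1.07.

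No paired analysis was possible because the labels carry no replicate numbers. As a substitute, a block for the range of title numbers gave 860 genes and 0 of the 10 transcripts. The 10 transcripts were not near the floor of counts, with 162 the fewest reads in a recovered sample. Whether the number of kidneys limits the calls was not tested. The interval of mt-Rnr2, -0.60 to 0.60, does not measure the spread of its own values alone, since eBayes with trend sets its SE partly from other genes. The coefficient of variation of mt-Rnr2 was 8.57% in +/+ and 11.6% in S74N/+ kidneys.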
